A study of Arabidopsis thaliana with 6 samples.

Results

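The first 2 days of Arabidopsis thaliana callus in high differentiating medium were described by setting 1 array of day 2 against 1 array of the callus it came from at day 0. These are 2 of the 6 arrays of the series, and they were chosen by their labels, not by any measured value. All samples were of ecotype Ler, and each array (a 1-colour ATH1 array) carried 1 RNA sample. Callus was induced from leaves of seedlings 14 to 17 days old on Gamborg's B5 medium with 2.0% glucose, 0.5 mg/l of the auxin 2,4-D and 0.05 mg/l of the cytokinin kinetin, in darkness at 22 °C for 2 weeks. The day 2 culture had then been shaken at 105 rpm in liquid MS medium with 0.2% sucrose, 4% mannitol, 0.2 mg/l auxins (2,4-D, NAA and IAA) and 1 mg/l of the cytokinin BA. Later arrays came from high medium at days 5 and 9, and from low medium at days 5 and 9. Low medium had the sucrose and mannitol of high medium, 2,4-D at 0.5 mg/l and kinetin at 1.5 µg/l, and no day 2 array of it was used here.

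The labels' growth text names the auxins and BA of high medium for all 6 samples, so the medium was taken from each sample's name. The light given to the liquid cultures is not stated. Between day 0 and day 2 the sugar, the osmolyte, the hormones, the shaking and the time all differed, and their parts in any difference below cannot be told apart. With 1 array a side there is no replicate error, so each ratio is a description of these arrays, without a test or a p-value. The arrays read RNA of whole cultures, in which fewer cells of a type and less RNA per cell cannot be told apart.

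In plants, callus is a mass of dividing cells, and the balance of auxin and cytokinin steers whether it keeps growing or forms organs or vascular cells. Heat-shock proteins are chaperones that bind unfolded proteins, and their genes respond to heat and to other stresses. Vascular cells of the water-conducting type lay down a secondary wall of cellulose, xylan and lignin inside the primary wall. UDP-glycosyltransferases (UGT) and glutathione transferases (GST) attach a sugar or glutathione to small molecules, among them hormones, phenolic compounds and foreign chemicals.

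Values are intensities on a linear scale. Anything under 24.7 was raised to 24.7, the floor, so where 1 of both arrays lay there the ratio is a bound, written as at least, and a gene at the floor on both arrays has no ratio. A probe set was called different at a ratio of at least 2-fold. By this rule 363 of 22746 probe sets (1.6%) were higher at day 2 than in callus and 374 (1.64%) were lower. For scale, 6 pairs of the later arrays share no array with this comparison, and they differed at least 2-fold at 94 to 354 probe sets. Among them, the high and low medium arrays differed at 264 (1.16%) on day 5 and at 94 (0.413%), the fewest, on day 9. The callus array differed from the later arrays at 627 to 993 probe sets, and from day 2 at 737, so the day 2 number lies within that range. The median fold was 2.51 among the probe sets higher at day 2 and 2.39 among those lower. The higher side held the larger ratios, with 22 probe sets past 8-fold against 4 on the lower side. No control probe set of the 64 on the array differed 2-fold, and their log2 ratios ran from -0.28 to 0.57. Many lay at the floor on both arrays, where the ratio is 0 by rule, so they could not differ. The bioB, bioC, bioD and cre controls with a ratio were above 0, up to 0.57, except AFFX-BioC-3_at at -0.12 and AFFX-r2-Ec-bioC-5_at at -0.28. Whether this bears on the ratios below was not tested. The trimmed mean intensity was 99.4 in callus and 99.3 at day 2. For GAPDH, whose control probe sets at both ends of the transcript read RNA integrity and labelling, the 3' signal over the 5' signal was 0.900 in callus and 1.08 at day 2. Its part in the ratios was not tested.

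**Figure D1:**
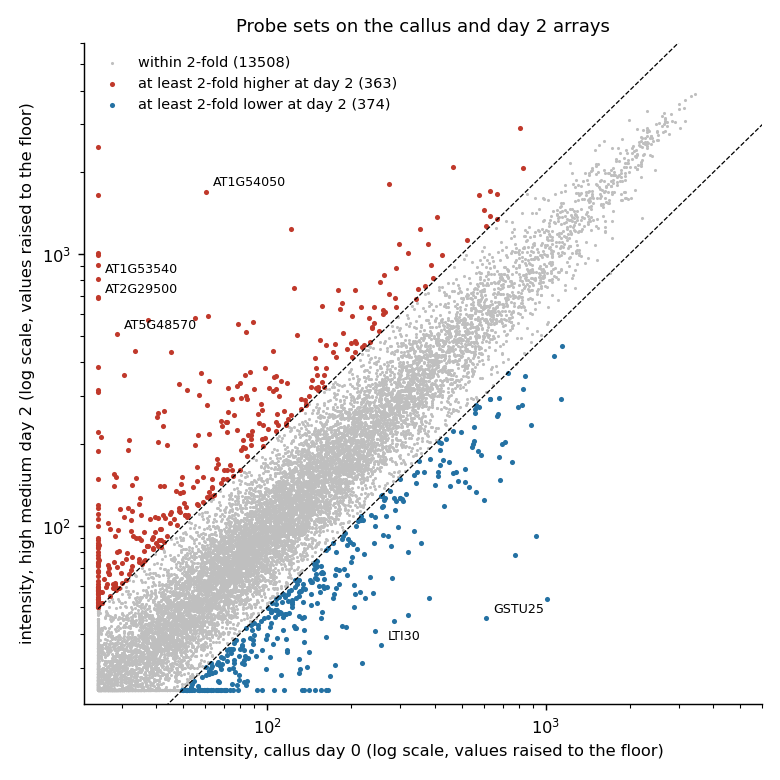
Each point is a probe set with a ratio, at its intensity on the callus array (horizontal, log scale) and on the day 2 array (vertical, log scale), with values raised to the floor of 24.7 and dashed lines at 2-fold. The 363 red points lie at least 2-fold higher at day 2 and the 374 blue points at least 2-fold lower, and 4 small heat-shock or chaperone genes and 2 lower genes are labelled.

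Many of the called probe sets have no gene name here, 175 of the 363 higher (48.2%) and 196 of the 374 lower (52.4%). The leading unnamed ones were 252515_at, which read 16.4 in callus and 2474 at day 2, and 250351_at, which read 6.9 and 1643. In the other direction 262518_at read 1011 in callus and 53.5 at day 2, and 259875_s_at read 926 and 91.5. Among 13356 named genes, each taken by its brightest probe set, 180 passed 2-fold on the higher side (1.35%) and 173 on the lower side (1.3%). Of the 7754 genes with a ratio these were 2.32% and 2.23%, and the median log2 ratio of those genes was -0.03.

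Small heat-shock genes and their partners led the named genes that were higher at day 2. AT1G53540, a small heat-shock protein of the cytosol, read 9.1 in callus, under the floor, and 812 at day 2, at least 32.9-fold higher. AT1G54050, another small heat-shock protein, read 60.1 in callus and 1694 at day 2, a ratio of 28.2-fold. AT2G29500 read 22.5 and 687, at least 27.8-fold higher. All 3 were dim in callus, AT1G54050 alone among them above the floor and the array's median of 42.4, and bright at day 2.

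AT5G48570, known as ROF2, an immunophilin that works with HSP90, read 28.9 in callus and 507 at day 2, 17.5-fold higher. AT1G52560, another small heat-shock protein, read 1.3 and 315, at least 12.8-fold higher. Hop3, a co-chaperone that links HSP70 and HSP90, read 18.2 and 311, at least 12.6-fold higher. ATHSP22.0, the small heat-shock protein of the endoplasmic reticulum, read 12.6 and 222, at least 8.98-fold higher. All 7 genes were brighter still in both media at day 5, where AT1G53540 reached 2345 in high medium and 2349 in low medium. Its day 9 values were 1038 and 1138.

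Of the 80 loci in the heat-shock list, 32 genes were measured, and 6 of these lay at the floor on both arrays. Among the other 26, 14 passed 2-fold on the higher side, beside 2.32% of all genes with a ratio. The median log2 ratio of the 26 was 1.16, from -1.02 to 5.04. Over all 32 members, with those at the floor on both arrays at 0, it was 0.38. With 16 added to each value in place of the floor it was 0.33. A dim gene has a ratio here if it was above the floor on either array, so the 26 are not all members. With the floor at the 60th percentile the log2 ratios of the 7 leading genes other than AT1G54050 ran from 1.77 to 3.64. Some members, named here after their values were seen, were HSA32, a protein needed for long-lasting heat tolerance, at 42.5 in callus and 265 at day 2, and Fes1A, a partner of HSP70, at 162 and 381. The single member at least 2-fold lower was Hsp70-2, also named after its value was seen, at 352 in callus and 173 at day 2, a log2 ratio of -1.02 that became -0.93 with array medians made equal. AT3G09440, a cytosolic HSP70 and the brightest member outside the calls, read 1171 in callus and 771 at day 2. Hop2 read 347 and 479. The highest ratios thus sat with small heat-shock proteins and co-chaperones, but not every such gene was higher. Hop1, another co-chaperone, had a log2 ratio of -0.35. Of the 26 members with a ratio 8 were below 0, both HSP70 genes among them.

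Genes for folding in the endoplasmic reticulum gave no call. Of the 37 loci in that list 14 were measured, and all 14 had a ratio. None passed 2-fold, beside 2.32% of all genes with a ratio higher and 2.23% lower, so the absence of calls is near those shares. Their median log2 ratio was 0.06, with 9 above 0 and 5 below, from -0.46 to 0.78. The highest was BZIP60, at 287 in callus and 493 at day 2. AT2G34250, a subunit of the protein channel into the endoplasmic reticulum, read 799 in callus and 699 at day 2. CRT1b, the lectin chaperone calreticulin, read 635 and 669.

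Genes tied to secondary walls leaned to the higher side at day 2. Of 30 genes measured, 7 were at the floor on both arrays, 6 passed 2-fold on the higher side and none on the lower side, beside 2.32% and 2.23% of all genes with a ratio. The median log2 ratio over the 23 with a ratio was 0.63. Over all 30, with those at the floor on both arrays at 0, it was 0.48. AT1G79620, a receptor-like kinase of xylem vessels, read 28.2 in callus and 155 at day 2, 5.49-fold higher, then 59.1 on day 5 and 39.5 on day 9 in high medium, and 19.9 and 10.4 in low medium. AT5G26330, a blue copper protein of the cell surface, read 40.7 and 203, then 60.2 and 33.6 in high and 15.8 and 10.4 in low medium. Both genes were brightest on the day 2 array.

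AT3G27200, another blue copper protein, read 157 in callus and 641 at day 2, 4.09-fold higher, then 371 and 201 in high medium and 84.5 and 67.5 in low medium. AT1G66810, known as C3H14, a zinc-finger regulator of secondary wall genes, read 29.5 and 115, a log2 ratio of 1.96 that became 0.82 with the floor at the 60th percentile. AT1G72230 read 12.3 and 57.4, and AT1G08340, a protein that turns off ROP GTPases, read 44.8 and 102. With that higher floor the log2 ratios of these 2 genes were 0.00 and 0.65, so 3 of the 6 calls were lost. Those of AT1G79620 and AT5G26330, also dim in callus, came from 2.46 to 1.25 and from 2.32 to 1.64.

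Enzymes of xylan, the main hemicellulose of secondary walls, were a little higher in the 4 genes measured, and none passed 2-fold. GUT2, a xylan synthase subunit, read 95.2 in callus and 139.7 at day 2, a log2 ratio of 0.55. IRX15-L and IRX15, which act in xylan synthesis, read 36.3 and 61.8, and 31.5 and 39.9. TBL34, which acetylates xylan, read 15.9 and 31.5. Among the genes of this list that no ratio could be given for was AT5G66390, a peroxidase of lignifying xylem, at 1.4 and 10.0. The cellulose synthase genes of secondary walls were not analysed here.

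Pectate lyases, which cut the pectin of primary walls, gave 2 more of the large ratios. AT3G27400 read 48.1 in callus and 332 at day 2, 6.91-fold higher, then 264 and 48.4 in high medium and 40.8 and 51.1 in low medium. AT1G04680 read 105 and 438, 4.19-fold higher, then 244 and 63.4 in high and 77.5 and 55.5 in low medium. AT4G24780, the brightest member, read 510 and 956, a log2 ratio of 0.91. At the floor on both arrays were 13 of the 22 measured members, and the median log2 ratio of the other 9 was 0.05, so the list as a whole was level.

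Day 2 was the highest of the 6 arrays for 17 of the 23 secondary-wall genes with a ratio (73.9%), and for 5 of the 9 pectate lyases. Over all 7754 genes with a ratio it was the highest for 17.6% and the lowest for 16.3%. It was the highest for none of the 26 heat-shock genes. This count includes the callus array, so it is not separate from the ratios above. It also takes in genes above the floor at day 2 but not in callus, such as AT1G72230, AT1G31720 and TBL34 of the secondary-wall list. Genes at the floor in callus and at day 2 were left out, whatever their later values.

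**Figure D2:**
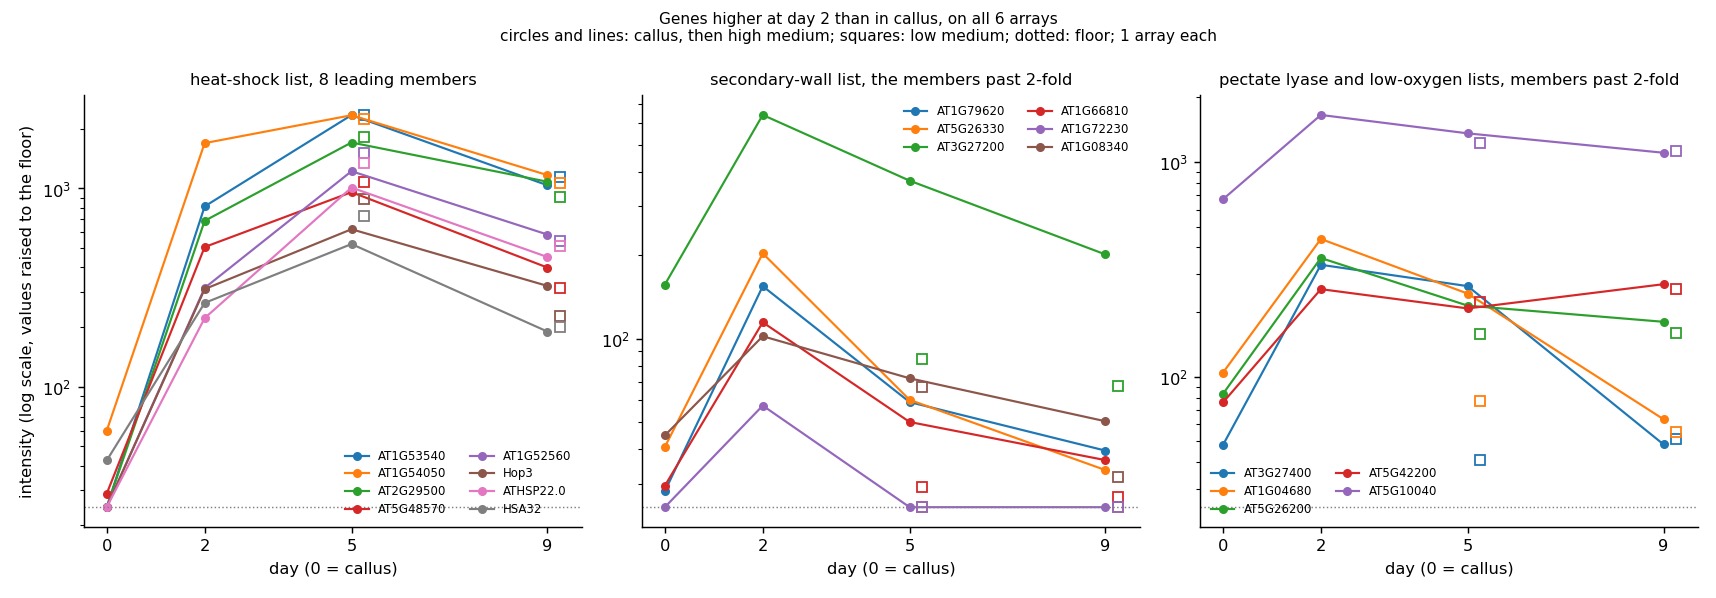
Intensity (log scale) of genes at least 2-fold higher at day 2, with circles joined by lines for callus and high medium at days 2, 5 and 9, open squares for low medium, and the floor of 24.7 dotted. The 8 leading heat-shock genes were brighter at day 5 than at day 2, while the 6 secondary-wall genes and both pectate lyases were brightest at day 2.

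**Figure D3:**
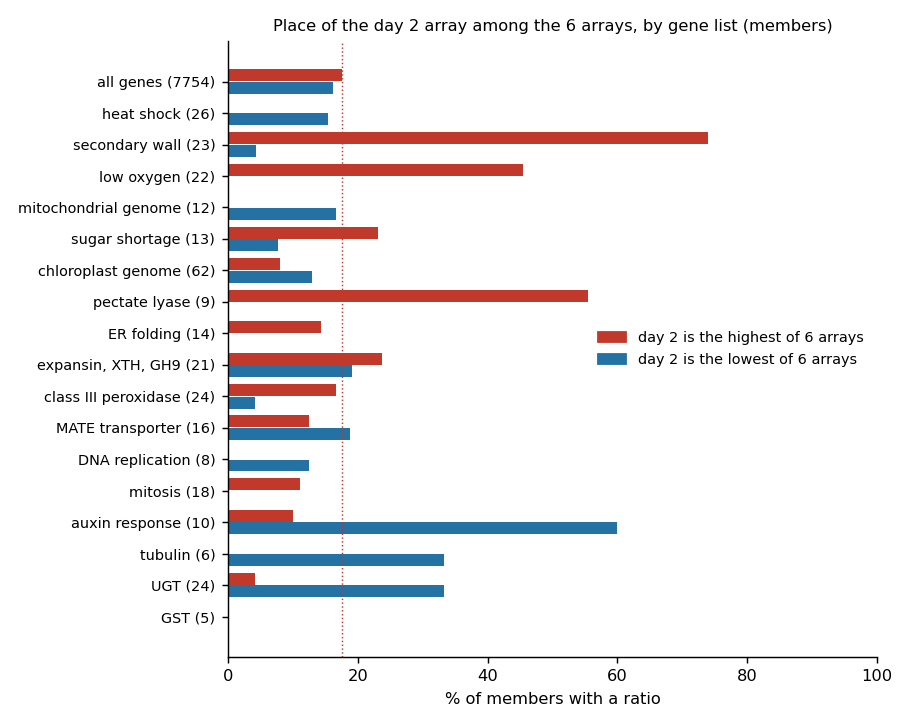
For each gene list, the percent of members with a ratio for which the day 2 array was the highest (red) or the lowest (blue) of the 6 arrays, with member numbers in brackets and a dotted line at the share for all genes, 17.6%. The secondary-wall list stands at 73.9% for highest and the auxin list at 6 of 10 for lowest.

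Genes known to respond to low oxygen were slightly but widely higher. Of 23 measured, 22 had a ratio, 21 of these were above 0, and the median log2 ratio was 0.50, beside 46.7% of all genes with a ratio above 0. Past 2-fold on the higher side were 3 of them, beside 2.32% of all genes with a ratio, and none on the lower side. AT5G26200, a mitochondrial carrier protein, read 83.2 in callus and 357 at day 2, AT5G42200, a RING-type protein, read 75.9 and 256, and AT5G10040 read 671 and 1657. Many members were already bright in callus, such as AT4G27450 at 2315 and 3354 at day 2. AT3G10040, known as HRA1, a repressor that dampens the low-oxygen response, read 325 and 467, and PDC2, pyruvate decarboxylase of fermentation, read 435 and 469.

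The callus medium held 2.0% glucose and high medium 0.2% sucrose, and the list of genes known to rise when sugar runs short was mixed. Of 13 members with a ratio, 3 passed 2-fold on the higher side and 1 on the lower side, beside 2.32% and 2.23% of all genes with a ratio, with a median log2 ratio of 0.20. AT3G15450 read 159 in callus and 359 at day 2, a log2 ratio of 1.17. AT5G56100 read 26.0 and 63.5, and AT1G18460 read 30.0 and 61.4, both dim and under 2-fold with the floor at the 60th percentile. The lower member was PPDK, pyruvate orthophosphate dikinase, at 154 and 57.0. IVD and MCCA, enzymes of leucine breakdown, read 112 and 149.7, and 71.5 and 82.2. SWEET1, a sugar transporter, read 154 in callus and 59.8 at day 2, a log2 ratio of -1.36. The 10 autophagy genes measured were all within 2-fold, with a median log2 ratio of 0.17.

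High medium also held mannitol, an osmolyte, and the dehydrins, proteins that protect cells from drying, differed among themselves. LTI30 read 256 in callus and 36.2 at day 2, 7.07-fold lower, then 93.1 and 85.2 in high and 103 and 70.9 in low medium. COR47 read 319 and 80.0, 3.99-fold lower, then 71.6 and 66.9 in high and 227 and 228 in low medium. AT1G54410, a small dehydrin, read 462 and 535, and AT4G38410 read 234 and 233. Of 46 loci listed for water deficit and abscisic acid 11 were measured, and 6 of these lay at the floor on both arrays, COR15A and LEA4-5 among them. Of the 5 with a ratio, 2 were at least 2-fold lower and none higher, beside 2.23% and 2.32% of all genes with a ratio. So few genes cannot show whether such a response was present. SIS, named for its induction by salt, is not in that list and read 25.2 in callus and 213 at day 2, 8.44-fold higher. With the floor at the 60th percentile the log2 ratios of LTI30 and SIS were -1.98 and 1.71.

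Hormone response genes were few in the annotation. ARR15, a type-A response regulator that cytokinin induces and that limits cytokinin signalling, read 16.3 in callus and 65.0 at day 2, then 37.8 and 22.0 in high medium and 21.4 and 14.3 in low medium. Its log2 ratio of at least 1.40 was 0.00 with the floor at the 60th percentile. Of the 35 loci in the cytokinin list, 3 were measured, ARR15 among them. RR16 lay under the floor on both arrays, at 0.9 and 6.4, and the remaining member had a log2 ratio of -0.08. Among auxin response genes, 8 of the 10 with a ratio were below 0, beside 4115 of all 7754 genes with a ratio. None of the 10 passed 2-fold, and their median log2 ratio was -0.37. GH3.1, WES1 and GH3.3, enzymes that join auxin to amino acids, read 165 and 88.6, 1251 and 839, and 1742 and 1437. LBD16, an auxin-induced regulator of lateral roots and callus, read 137 in callus and 89.8 at day 2. IAA30 and IAA20, repressors of auxin response, were the 2 members above 0, at 203 and 349, and 59.7 and 86.8. For 6 of these 10 genes day 2 was the lowest of the 6 arrays.

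The protease inhibitors had 2 of 8 genes with a ratio past 2-fold on the higher side, beside 2.32% of all genes with a ratio. The list was made with values of these data known, so this count is a description only. AT1G72060 read 45.0 in callus and 437 at day 2, 9.71-fold higher, and AT2G38870 read 80.6 and 294. Of leading genes outside the lists, AT1G72800 read 55.2 and 580, and AT5G10695 read 61.5 and 592. AT2G20500 read 15.9 and 188, at least 7.62-fold higher, and AT3G60520 read 40.7 and 259.6. AT5G40590 read 31.8 in callus, 207 at day 2, then 47.6 and 19.2 in high medium and 29.0 and 19.4 in low medium, so it stood out at day 2 among these arrays. With the floor at the 60th percentile the log2 ratios of AT2G20500 and AT5G40590 came to 1.53 and 1.67.

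GSTU25, a glutathione transferase of the tau class, led the named genes that were lower at day 2. It read 612 in callus and 45.5 at day 2, 13.5-fold lower, then 50.8 and 48.7 in high and 23.0 and 66.3 in low medium. Its neighbour on the chromosome, GSTU26, read 159 and 66.6, a log2 ratio of -1.25. GSTU27 read 216 and 118. Of 13 measured GST genes 8 lay at the floor on both arrays, and the median log2 ratio of the other 5 was -0.87. Over all 13, with those at the floor on both arrays at 0, it was 0.

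UDP-glycosyltransferases leaned to the lower side. Of 50 measured, 26 lay at the floor on both arrays, 7 were at least 2-fold lower, beside 2.23% of all genes with a ratio, and none was at least 2-fold higher. The median log2 ratio of the 24 with a ratio was -0.48, and 18 were below 0, beside 4115 of all 7754 genes with a ratio. Over all 50 measured, with those at the floor on both arrays at 0, the median was 0. Some of the 24 have a ratio only through callus, UGT73B5 and UGT76B1 among them. UGT73B5 read 155 in callus and 24.6 at day 2, at least 6.29-fold lower. UGT76B1, known in leaf defence, read 141 and 13.5, at least 5.72-fold lower, and stayed under the floor on all 4 later arrays.

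UGT73B4, the chromosomal neighbour of UGT73B5, read 758 in callus and 171 at day 2, a log2 ratio of -2.15. Neighbouring copies of a family can share probe signal, so the pairs UGT73B4 with UGT73B5 and GSTU25 with GSTU26 may not be separate readings. UGT71C3 read 131 and 29.6, also a log2 ratio of -2.15. IAGLU, named after its value was seen, joins glucose to the auxin IAA and read 338 and 153. UGT85A2, bright and outside the calls, read 552 and 472. With the floor at the 60th percentile the log2 ratios of UGT73B5, UGT76B1 and UGT71C3 came to -1.26, -1.12 and -1.01.

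A family of AAA-type ATPases was listed because it holds AT1G43910 and AT3G28510, both among the leading lower genes, so its counts support nothing further. AT1G43910 read 380 in callus and 54.2 at day 2, 7.02-fold lower, then 175 and 319 in high and 79.9 and 163 in low medium. AT3G28510 read 165 and 9.1, at least 6.68-fold lower, and AT3G28580 read 125 and 42.6. Of 33 MATE efflux transporters measured, 17 lay at the floor on both arrays, and with these at 0 the median log2 ratio was 0. Among the 16 with a ratio the median was -0.34. At least 2-fold lower were 3 of the 16 and none was higher, beside 2.23% and 2.32% of all genes with a ratio. They were AT1G33110 at 243 and 99.4, AT1G71140 at 123 and 51.3, and AT5G52450 at 148 and 71.6, whose log2 ratio of -1.05 became -0.96 with array medians made equal. With the floor at the 60th percentile, the log2 ratios of AT3G28580 and AT1G71140 were -0.94 and -0.92, and that of AT3G28510 was -1.34. AER, an alkenal reductase that removes reactive carbonyls, read 156 and 45.5, and AT1G60730, an aldo-keto reductase, read 485 and 146, while AT5G62420 of that family was higher, at 22.8 and 71.8, a call that was also lost with that floor, at 0.14. Cytochrome P450 genes gave little, since 20 of 23 lay at the floor on both arrays.

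Genes that loosen or remodel the primary wall were called on both sides, with 5 of the 21 with a ratio lower and 2 higher, beside 2.23% and 2.32% of all genes with a ratio. One of the 5, GH9B13, named after its value was seen, had a log2 ratio of -1.02 that became -0.93 with array medians made equal. XTH20, which cuts and rejoins xyloglucan, read 285 in callus and 44.5 at day 2, a log2 ratio of -2.68, and 44.6 and 38.7 in high medium later. EXPA9, an expansin, read 194 and 65.6. EXGT-A3 read 550 and 205, then 392.2 and 483 in high medium, and EXLA1 read 386 and 175, then 454 and 593, so both were lower at day 2 than on every other array. The 2 higher members, EXPB3 at 28.4 and 60.3 and EXPA15 at 75.6 and 153, were named after their values were seen. Both were under 2-fold with 16 added to each value in place of the floor. EXPA4, the brightest, read 1057 and 935.

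Class III peroxidases, which oxidise phenolic compounds in the wall, were mostly below 0 where they had a ratio. Of the 24 genes with a ratio 18 were there, and the median log2 ratio was -0.30. At the floor on both arrays were 31 of the 55 measured, and with these at 0 the median over all 55 was 0. Over all 7754 genes with a ratio, 4115 were below 0, 2.23% were called lower and 2.32% called higher. The 3 called lower were AT4G08780 at 159 in callus and 60.1 at day 2, AT5G64100 at 305 and 125, and AT5G17820 at 144 and 61.8. The last 2 read lower again in high medium at day 9, at 32.4 and 17.9. AT1G68850 was the 1 called higher, at 17.8 and 58.9, with a log2 ratio of 0.00 where the floor was at the 60th percentile. PRXR1, the brightest, read 2360 and 2321. HCT, an enzyme of lignin synthesis, read 670 in callus and 254 at day 2, 2.64-fold lower, then 340 and 569 in high medium. Laccases and dirigent proteins, which couple lignin and related units, gave no call, and 13 of 16 lay at the floor on both arrays.

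**Figure D4:**
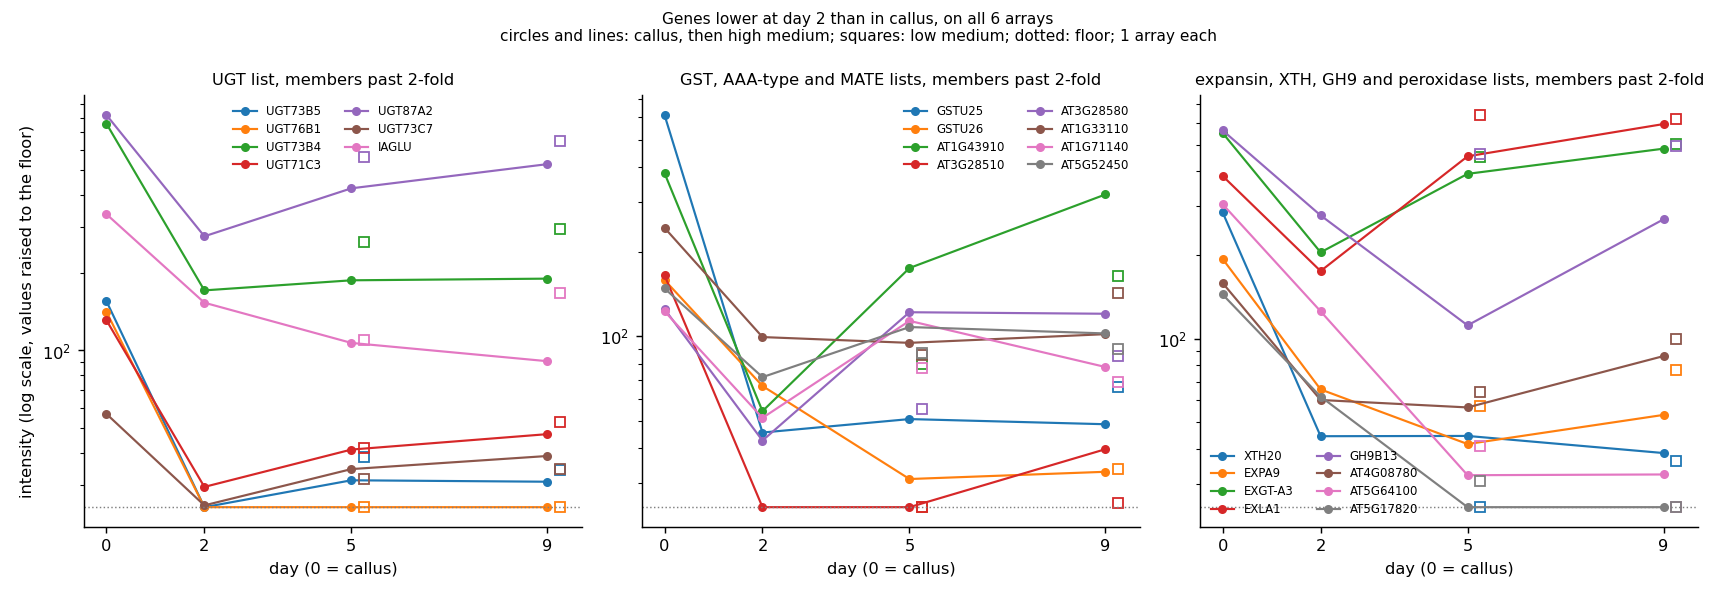
Intensity (log scale) of genes at least 2-fold lower at day 2, with circles joined by lines for callus and high medium at days 2, 5 and 9, open squares for low medium, and the floor of 24.7 dotted. GSTU25 and XTH20 stayed low on the later arrays, while AT1G43910, EXLA1 and EXGT-A3 read higher again at day 5 and day 9.

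Several further genes with low day 2 values lay outside these families. AT1G21520 read 219 in callus and 31.1 at day 2, and AT3G60420 read 321 and 47.0. AT4G22530 read 168 and 28.0, AT5G18470 read 175 and 30.7, AT5G03610 read 139 and 30.1, and AT2G25450 read 191 and 42.2. AT1G54890 and AT3G47480 lay at the floor at day 2, from 136 and 115 in callus, and AT3G47480 had a log2 ratio of -0.82 with the floor at the 60th percentile. With that floor AT1G21520, AT4G22530, AT5G18470, AT5G03610, AT2G25450 and AT1G54890 had log2 ratios from -1.75 to -1.06. NRT2.5, a nitrate transporter of nitrogen-starved tissue, read 102 in callus, 32.9 at day 2, and 43.6 and 129.8 in high and 49.4 and 159 in low medium. Its log2 ratio of -1.63 became -0.65 with the floor at the 60th percentile. LCR69, a defensin-like peptide, read 1141 and 459, and TET8, a tetraspanin of secreted vesicles, read 409 and 158.

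Genes of cell division were slightly lower. For scale, of all 7754 genes with a ratio 4115 were below 0 and 2.23% were at least 2-fold lower. In the mitosis list 14 of 18 genes with a ratio were below 0, the median log2 ratio was -0.36, and 2 were at least 2-fold lower. They were KICP-02, a kinesin, at 63.3 in callus and 28.7 at day 2, and AT3G44050, another kinesin, at 121 and 57.9. The DNA replication list had 6 of 8 below 0 and a median of -0.34, with ASF1B, a histone chaperone, at 264 and 124, a log2 ratio of -1.08 that became -0.99 with array medians made equal. All 6 tubulin genes with a ratio were below 0, none past 2-fold, and TUA6 read 1333 and 983. The calls of KICP-02 and AT3G44050 were under 2-fold with the floor at the 60th percentile, and also with 16 added to each value in place of the floor.

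Genes encoded in the organelles were slightly higher. For scale, of all genes with a ratio 46.7% were above 0 and 2.32% were at least 2-fold higher. Of 12 mitochondrial genes with a ratio, 10 were above 0 and the median log2 ratio was 0.41, with none past 2-fold. Each gene was taken by its brightest probe set, and nad1 had 5 probe sets with log2 ratios from -0.89 to 0.56. cox1, a subunit of the last complex of the respiratory chain, read 162 in callus and 260.4 at day 2, then 448 and 353 in high medium, and nad4, of the first complex, read 233 and 297. Of 62 chloroplast genes with a ratio, 50 were above 0, the median was 0.19, and psbA, a photosystem subunit, was the 1 past 2-fold, at 29.3 and 59.1. The log2 ratio of psbA came to 0.73 with 16 added to each value in place of the floor. psbM read 1247 and 1322. Intensity of the 25S rRNA control probe set was 2233 in callus and 2606 at day 2, and its part in these ratios was not tested.

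**Figure D5:**
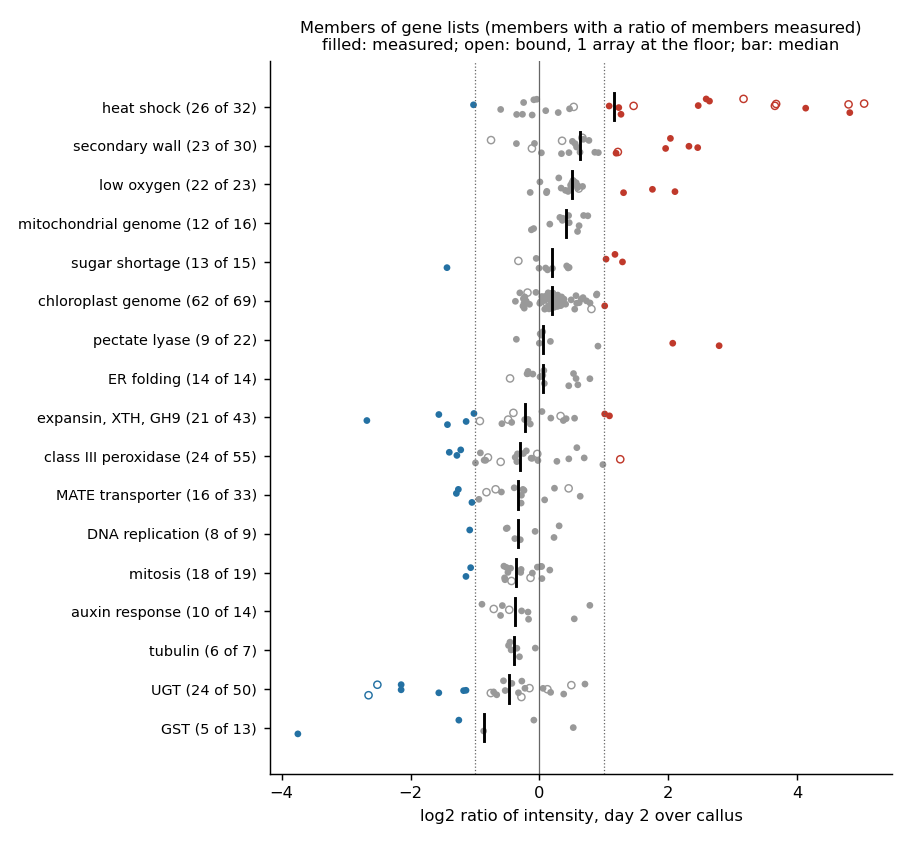
Log2 ratio of intensity, day 2 over callus (horizontal), for each member of 17 gene lists (rows, with members with a ratio of members measured), filled where both arrays were above the floor, open where the ratio is a bound, and with the median as a bar. The heat-shock list has the highest median, 1.16, and the GST list the lowest, -0.87, among the lists drawn.

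Few of the listed markers of differentiated tissue were among the named genes, and those were mostly dim on both arrays. The lists held 15 loci for epidermis, stomata and root hairs, 36 for green leaf tissue, 9 for xylem, 12 for phloem and 9 for meristems. Loci that were not measured say nothing about the cultures. All 7 measured markers of epidermis, stomata and root hairs lay at or under the floor in callus and at day 2. The 4 measured markers of green leaf tissue summed to 191 in callus and 201 at day 2, with 3 and 2 of them above the floor. RCA, rubisco activase, read 103 and 109. The single xylem marker, AT5G66390, summed to 1.4 and 10.0, under the floor on both arrays, and the single phloem marker, OPS, read 40.4 and 66.0. Of the 2 meristem markers CLV3 was under the floor on both arrays and LAS read 63.6 and 45.2. The 6 measured reference genes had log2 ratios from -0.12 to 0.23.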

How the data were processed

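Each probe set of an array has 1 deposited intensity, on a linear scale. Which software the authors used for it is not given in the sources read here, and trimmed means of 99.2 to 99.4 show that the deposited intensities had been brought to a common level. From there, 64 control probe sets were dropped, values were raised to 24.7 (each array's 40th percentile, of which the median was taken), and log2 ratios were computed with pandas 2.3.3 and numpy 2.4.6. The platform annotation names 1 gene for 13513 probe sets, of which 13436 matched the RefSeq table of TAIR10.1, used for names and neighbours only. The 15 highest and 15 lowest named genes were to be named, and per list up to 4 members past 2-fold and 2 bright others. Lists of loci came from general knowledge of the gene families, and members and lists were chosen with earlier results of these data known. Lists of loci were added after values had been seen, so their counts beside the share of all genes are descriptions, not support. Lists by description keyword and promoter motifs were not used here. The procedure was tested on simulated data, with changes put only into probe sets far brighter than the floor. That test does not cover genes that are dim on either array. Alternatives changed the floor, the scaling, the pseudocount, the fold threshold and the choice of probe set. The number of arrays limits the precision.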

Additional observations from a re-analysis of the deposited data

How the results depend on the processing

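No paired analysis was possible because each condition has 1 array and the result comes from no test. The numbers of probe sets at least 2-fold higher and lower, 363 and 374, depended on the floor and the threshold. They were 616 and 732 with the floor at the 20th percentile and 212 and 189 with it at the 60th. A threshold of 1.5-fold gave 1094 and 1400, and one of 3-fold gave 120 and 81. With array medians made equal they were 427 and 290, so the share of calls that were higher went from 49.3% to 59.6%, and the median log2 ratio of all probe sets from -0.04 to 0.05. The alternatives were also applied to 89 genes, the 15 highest, the 15 lowest and the list members past 2-fold, so all were picked for large ratios. Of their 534 ratios, 452 stayed within 1.5 times of the value given and on the same side of 2-fold. Another 39 moved by more and 43 came under 2-fold. None changed direction, but a changed floor or pseudocount cannot reverse a ratio, and all 89 began past 2-fold. A floor at the 60th percentile took 21 of them under 2-fold, since the genes are dim in one of the arrays. Without a floor, on log2(value + 16), the heat-shock median was 0.33, because members at the floor on both arrays then count. Medians of some short or dim lists changed sign. With array medians made equal they were the water-deficit and nitrogen lists, at 0.03 each, and subtilases, at 0.06. With the floor at the 20th percentile they were laccases and dirigent proteins (-0.36 to 0.31), tetraspanins (-0.14 to 0.19) and subtilases, and with it at the 60th the cytokinin list (0.66 to -0.08), SWEET genes (0.04 to -0.76) and calmodulin-like genes (-0.13 to 0.59). Without a floor P450 genes did too, at 0.02. The cause of the other differences was not tested.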

Other observations

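The 12 serine carboxypeptidase-like genes with a ratio, of 29 measured, had a median log2 ratio of -0.10 and no member past 2-fold. Of 20 beta-glucosidases, 13 lay at the floor on both arrays. Of the other 7, whose median log2 ratio was -0.37, 6 were below 0, beside 4115 of all 7754 genes with a ratio. Over all 20, with those at the floor on both arrays at 0, the median was 0. BGLU28 was the 1 past 2-fold, on the lower side, beside 2.23% of all genes with a ratio. It went from 53.9 in callus to 12.0 at day 2, a call lost with the floor at the 60th percentile. AT1G36060, a stress-type transcription factor in the list of callus and regeneration genes, read 163 in callus and 319.5 at day 2, and PHV, which sets leaf polarity and vascular pattern, read 360 and 299. The median log2 ratio of the 4 genes of that list with a ratio was -0.29.

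Where a gene had several probe sets with a ratio, they mostly gave like values. The median spread between them was 0.24 on the log2 scale over 83 genes, and 82 of these had a spread under 1. Of 7 such genes with a call, 3 had the same call on all probe sets, and none had opposite calls. Of 5818 pairs of neighbouring genes measured, 4 had both genes past 2-fold, beside 1.35% of all single genes higher and 1.3% lower. Whether neighbours shared calls more often than other genes was not tested. Besides the 2 pairs named above, AT5G37690 and AT5G37710 were both higher, and AT3G01400 and AT3G01410 went opposite ways, with log2 ratios of 1.09 and -1.25.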
